A study of Mus musculus with 32 samples.

Results

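The comparison described here is the interaction of E171 with diet in mouse liver: for each gene, the E171 difference on the Western diet minus the E171 difference on the normal diet. It uses 32 of the 32 arrays of the series, which were chosen by the labels alone, with 8 male mice in each of 4 groups. E171 is food-grade titanium dioxide, a white pigment and food additive. All mice were F1 offspring of C57BL/6J females, were killed at 21 weeks of age, and had been weaned onto the pellets their mothers received. Normal diet controls and Western diet controls were never given the additive. Normal diet E171 mice and Western diet E171 mice received it in food at an intended daily dose of 10 mg/kg, and their mothers were treated for 40 days before mating. The Western diet, which the treatment protocol calls high fat, began in adulthood and lasted 16 weeks, so exposure of the mother and the pup preceded the change of diet. The labels ask whether the dietary pattern makes the response to the additive worse. Neither the litter nor the hour of death is given, so each mouse counts as an independent sample in the tests. The p-values judge a difference against the spread between these mice. Littermates within a group would make the p-values too small and the intervals too narrow.

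Bulk liver RNA comes mostly from hepatocytes, with shares from Kupffer cells and other immune cells, endothelium, stellate cells, bile ducts and blood. A Western diet fills hepatocytes with lipid droplets, which are coated by perilipin and CIDE proteins, and brings in inflammatory cells and activates scar-forming ones. An ingested particle reaches the liver through the portal vein, where macrophages take it up, and toxic or proteotoxic stress is read through the heat shock, unfolded protein, antioxidant and DNA damage programmes. In bulk tissue, fewer cells of a type and less RNA per cell cannot be told apart.

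All 12 of the hepatocyte markers were measured on every array, and their mean level lay between 8.18 and 9.09 in every mouse on the scale used below. A level is the log2 signal of a probe relative to the 75th percentile of its array, so negative levels lie below that percentile, and levels of different genes are not compared. Arrays held 32164 to 37261 probes well above background, none had a saturated spot, and arrays of a group correlated at 0.981 to 0.996. The 4 slides each carried 2 mice of all groups.

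No gene of the 23647 tested had an interaction below an adjusted p of 0.05 (0% called, limma with Benjamini-Hochberg adjustment), and the lowest adjusted p was 0.332. At an unadjusted p under 0.05 there were 1222 genes, which is 5.17% of all, with 775 above 0 (3.28%) and 447 below 0 (1.89%). In the authors' deposited log2 values 1255 of 24230 genes were at that level, 652 above and 603 below 0. The median interaction over all genes was 0.00 (50.9% above 0) with a median standard error of 0.158. On the normal diet E171 gave no call either (0% called, lowest adjusted p 0.362), with 956 genes at an unadjusted p under 0.05. On the Western diet 91 genes were called (0.385%), 51 higher and 40 lower, or 50 higher and 84 lower in the deposited values. A call on the Western diet and none on the normal diet does not show a difference between the diets, since the test of that difference is the interaction itself. The count of 91 moved with single mice: it rose to 169, 154 and 158 without Western diet control mouse 1, 2 or 8. It dropped to 33, 52 and 29 without Western diet control 3, 5 or 7, and to 38, 50, 50 and 47 without Western diet E171 mouse 2, 4, 5 or 8.

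Confidence intervals of the interaction were narrow for most genes. The median half-width of the 95% confidence interval was 0.323 on the log2 scale, and the 5th to 95th percentiles were 0.159 and 0.829. The whole interval lay between -1 and 1, a 2-fold change either way, for 21496 genes (90.9%). It lay within 1.5-fold for 15916 genes (67.3%). For the remaining 2151 genes the interval reached past -1 or 1, so a difference of that size between the diets was neither detected nor excluded there. The intervals describe fitted values, and 20160 genes had a probe detected on all 32 arrays. Where a probe was below background in a group, a narrow interval does not bound the true size. Albumin, the main secreted liver protein, had an interaction of 0.00 (95% interval -0.23 to 0.22).

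**Figure D1:**
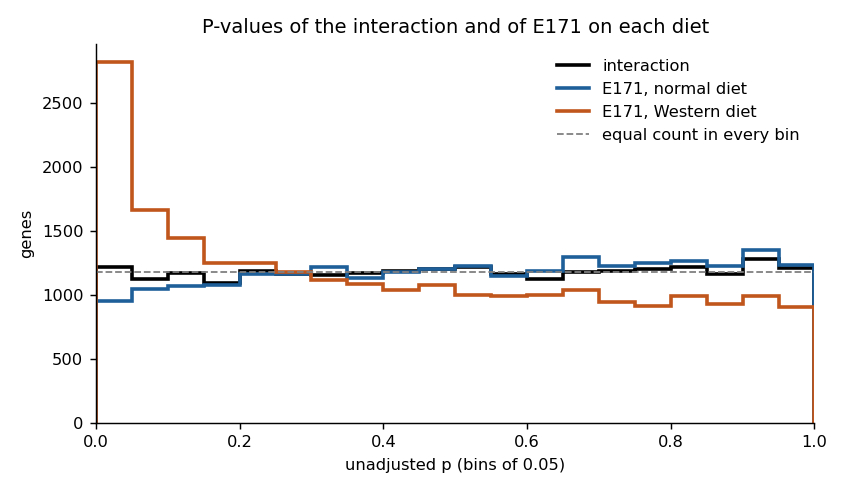
Number of genes (vertical axis) by unadjusted p in bins of 0.05 (horizontal axis) for the interaction (black), E171 on the normal diet (blue) and E171 on the Western diet (orange), each over 23647 genes; the dashed line is an equal count in every bin. The lowest bin holds 1222 genes for the interaction, 956 for the normal diet and 2825 for the Western diet.

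The 91 genes called on the Western diet were mostly of the same sign on the normal diet. Their E171 difference had the same sign on both diets in 77 of 91 (84.6%), against 57.1% of all genes tested. Normal diet mice are separate animals from those that chose the 91. In the direction called, the median difference was 0.627 on the Western diet and 0.133 on the normal diet. The Western diet value chose these genes, so its size is a description, as are the 72 of 91 with an interaction p under 0.05. On the normal diet 21 reached an unadjusted p under 0.05 with the same sign and 1 with the opposite sign. Across all genes, which are not independent, the E171 differences on the diets had a Pearson r of 0.241 and a Spearman rho of 0.21. The Western diet difference in controls and in E171 mice had an r of 0.932 and a rho of 0.87, and 47.3% and 53.2% of genes were called in those contrasts.

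**Figure D2:**
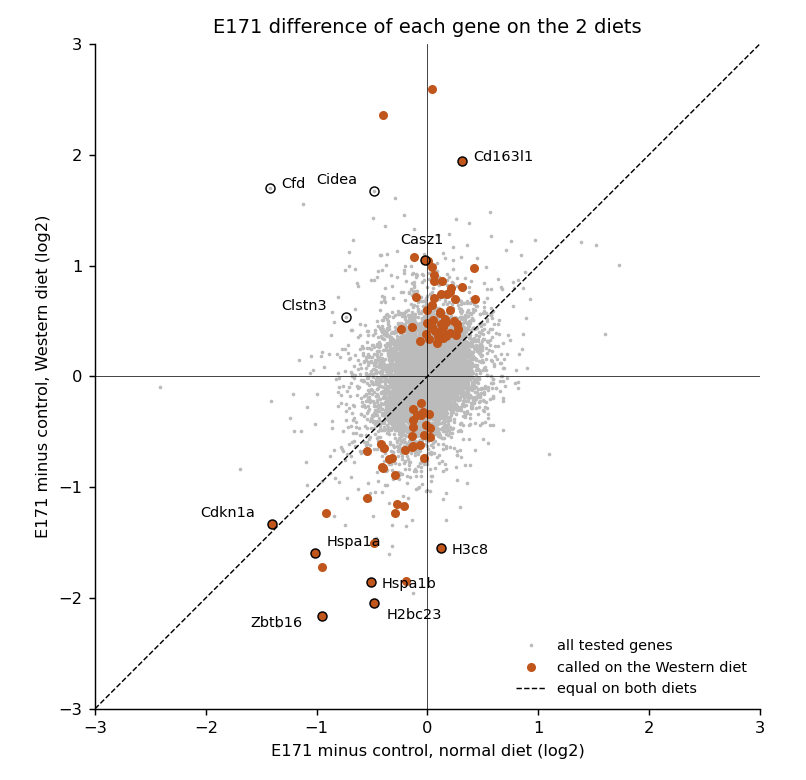
E171 minus control on the normal diet (horizontal axis) and on the Western diet (vertical axis), both log2, with 1 point for each of 23647 genes; orange points are the 91 genes called on the Western diet and the dashed line marks equal differences. Cdkn1a lies on the line at -1.40 and -1.33, whereas H3c8, which is mostly below background outside Western diet controls, lies far below it at 0.12 and -1.55.

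Cdkn1a, the p53 target that halts the cell cycle, had close values on both diets. It fell by 1.33 on the Western diet (adjusted p = 0.024, limma), and its difference on the normal diet was -1.40 (adjusted p = 0.362). The interaction was 0.07 with a 95% interval from -0.72 to 0.86, and its other kept probes ranged down to -1.52. Of 17 measured p53 targets 15 had an interaction below 0, where 50.9% of all genes lay above 0. Their median was -0.10, with none at an unadjusted p under 0.05. Cebpd, a transcription factor of the acute phase, fell by 0.67 on the Western diet (adjusted p = 0.0385) beside a difference of -0.54 on the normal diet, and its interaction was -0.13. Jdp2, an AP-1 repressor, fell by 0.61 on the Western diet (adjusted p = 0.0273) and differed by -0.42 on the normal diet. Srsf5, a splicing factor, rose by 0.38 on the Western diet (adjusted p = 0.0456) and differed by 0.26 on the normal diet.

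The lowest unadjusted p of the interaction belonged to H3c8, a replication-dependent histone H3 gene of the large cluster on chromosome 13. Messages of such genes end in a stem loop and normally carry no poly(A) tail. The H3c8 probe (mm9, chr13:23627719-23627778, plus strand) lies over that end, and 28 of its bases are shown because they identify what was measured, with the inverted repeat of 6 bases around a loop of 4 in capitals.
H3c8: ctttaaaGGCTCTTCTTAGAGCCaccca
In normal diet controls its level ran from -7.35 to -6.95 with a median of -7.16, and in normal diet E171 mice from -7.40 to -6.26 with a median of -7.16. In Western diet controls it ran from -5.45 to -3.93 with a median of -4.67, and in Western diet E171 mice from -7.21 to -5.10 with a median of -6.29. A probe is called detected where Feature Extraction marks it well above background. H3c8 was detected on 0 of 16 normal diet arrays, 7 of 8 Western diet control arrays and 1 of 8 Western diet E171 arrays. In controls the mean Western diet level was 0.48 above the background limit of normal diet arrays on the log2 scale. That mean includes an array below background. The probe passed the filter on dim probes, which asks for at least 6 of 8 arrays of a group above background, through Western diet controls alone. On the Western diet 6 of 8 E171 mice lay below every control and the groups overlapped in the rest. The fitted Western diet difference was -1.55 (adjusted p = 0.0013) and the fitted interaction -1.67 (95% interval -2.35 to -1.0, unadjusted p = 1.75e-05, adjusted p = 0.332). Both rest on groups mostly or wholly below background, so their sizes are not measured. It was -1.94, -0.83, -2.09 and -1.84 on slides 1 to 4, and leaving out Western diet E171 mouse 2 brought the adjusted p to 0.025 (interaction -1.84).

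Other histone genes of the same chromosome 13 cluster had values in the same direction. H2bc23, a histone H2B gene, was detected on 0 of 16 normal diet arrays, 8 of 8 Western diet control arrays and 2 of 8 Western diet E171 arrays. Its Western diet level ran from -4.63 to -2.89 in controls (mean -3.58) and from -7.34 to -4.01 in E171 mice (mean -5.63), so the groups overlapped. Its fitted Western diet difference was -2.04 (adjusted p = 0.00662) and its fitted interaction -1.56 (SE 0.511, adjusted p = 0.808). It too passed the filter through Western diet controls alone, so these sizes rest on values below background in the other groups. H4c9, a histone H4 gene, was above background on every array. Its medians were -1.99 and -1.76 in normal diet control and E171 mice and -0.94 and -1.46 in Western diet control and E171 mice. Its interaction was -0.70 (95% interval -1.09 to -0.31, unadjusted p = 0.000972, adjusted p = 0.795), and all 4 groups overlapped their counterpart on the same diet. H2bc8, another histone H2B gene, had an interaction of -0.89 (SE 0.253, adjusted p = 0.808), with 4 of 8 normal diet control arrays above background. This family was picked after its values were seen. Of its 47 measured genes 4 had a negative interaction at an unadjusted p under 0.05 (background 1.89%). None had a positive value at that level (background 3.28%). Below 0 lay 38, with a median of -0.09, where 50.9% of all genes lay above 0. The 4 became 2 under normexp, another background correction, and 5 in the deposited values. Coding regions of genes of the same histone type are nearly alike, so probes may share signal within a type. The H2bc8 and H2bc23 probes share no run longer than 4 bases, with 22 of 60 bases identical at the best ungapped alignment. Other probes of the family were not compared.

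Cell cycle genes lay below 0 more often than above. Of 21 measured members none was called, and 3 had a negative interaction at an unadjusted p under 0.05 (background 1.89%). Below 0 lay 16, with a median of -0.31, where 50.9% of all genes lay above 0. The 3 became 7 under normexp and 5 in the deposited values. Ccnb2, the cyclin that drives entry into mitosis with Cdk1, had medians of -1.87 and -1.84 in normal diet control and E171 mice. On the Western diet it ran from -0.71 to 1.46 in controls (median 0.72) and from -1.09 to 0.36 in E171 mice (median -0.37). The Western diet controls therefore spread widely and overlapped the E171 mice, and both lay above all normal diet mice. Its interaction was -0.94 (SE 0.328, adjusted p = 0.861). Cdk1, the mitotic kinase itself, had an interaction of -1.20 (SE 0.455, adjusted p = 0.918), but was above background on only 2 of 16 normal diet arrays. Ccnd1, the G1 cyclin, had an interaction of -0.69 (adjusted p = 0.925), while the S phase genes Pcna and Mcm5 lay at 0.00 and 0.03. The mean level of the list was -0.02 ± 0.58 (SD, n = 8) in Western diet controls and -0.47 ± 0.35 (SD, n = 8) in Western diet E171 mice, against -1.93 ± 0.21 (SD, n = 8) and -2.03 ± 0.15 (SD, n = 8) on the normal diet.

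Heat shock genes all lay on the same side of 0. These genes encode the chaperones that HSF1 switches on when proteins misfold. All 16 measured members had an interaction below 0, with a median of -0.39, where 50.9% of all genes lay above 0. None was called, and 5 reached an unadjusted p under 0.05, all lower (background 1.89%). Under normexp, quantile, another percentile scaling and the deposited values, 7 to 9 members did so with medians from -0.41 to -0.38. Members of a list are read in the same mice, so 16 values of equal sign are not 16 separate measurements. Hspa1b and Hspa1a, the inducible Hsp70 genes, lie side by side on chromosome 17. Their upstream windows are shown because they are nearly the same while the probes are not: 247 of 250 bases before the transcription start are identical (RefSeq, GRCm38.p6, minus strand, chr17:34959239-34959488 for Hspa1b and chr17:34972157-34972406 for Hspa1a). Capitals mark GAANNTTC, a pair of the inverted units of which heat shock elements are built.
Hspa1b: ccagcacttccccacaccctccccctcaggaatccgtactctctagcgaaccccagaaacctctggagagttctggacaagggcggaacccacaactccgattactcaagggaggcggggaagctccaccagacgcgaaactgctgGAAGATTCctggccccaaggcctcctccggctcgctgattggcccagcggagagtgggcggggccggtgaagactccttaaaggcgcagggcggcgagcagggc
Hspa1a: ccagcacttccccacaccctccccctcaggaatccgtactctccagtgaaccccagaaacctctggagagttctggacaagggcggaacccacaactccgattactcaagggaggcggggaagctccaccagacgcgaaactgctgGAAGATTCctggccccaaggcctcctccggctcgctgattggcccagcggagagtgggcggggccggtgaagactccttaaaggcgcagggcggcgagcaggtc
A pair of units, spelled GAANNTTC or TTCNNGAA (each reads the same on both strands), occurred in the 250 upstream bases of 7 of the 12 heat shock genes with such a window, and in 14.5% of 27025 genes. A match is a description of the letters, not a bound site.

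Hspa1b ran from 1.70 to 3.45 in normal diet controls (median 2.33) and from 1.28 to 2.37 in normal diet E171 mice (median 2.00). On the Western diet it ran from 0.67 to 3.22 in controls (median 1.85) and from -0.98 to 1.49 in E171 mice (median -0.20). The E171 mice on the Western diet were the lowest of the 4 groups, and 7 of the 8 lay below every Western diet control. It fell by 1.86 with E171 on the Western diet (adjusted p = 0.00885), differed by -0.51 on the normal diet, and had an interaction of -1.35 (SE 0.487, unadjusted p = 0.0095, adjusted p = 0.867). By slide the interaction was -0.56, -0.53, -0.96 and -3.33, so slide 4 held the largest value. Hspa1a fell by 1.6 on the Western diet (adjusted p = 0.00355), but its normal diet difference was already -1.01, and its interaction was -0.59 (SE 0.369, adjusted p = 0.999). The probes of the pair share no run longer than 5 bases. Dnajb1, the Hsp40 partner of Hsp70, fell by 0.89 on the Western diet (adjusted p = 0.0152) with an interaction of -0.60. Hsph1, the Hsp110 exchange factor, Hspa8, the constitutive Hsc70, and Chordc1, an Hsp90 cochaperone, had interactions of -0.80, -0.43 and -0.46. St13, which steadies Hsp70 with its substrate and is not on the list, was among the 12 lower genes of lowest p at -0.33. Hspd1, the mitochondrial chaperonin, stood at -0.01. The list's mean level was 4.78 ± 0.32 and 4.65 ± 0.21 in normal diet control and E171 mice and 4.74 ± 0.34 and 4.18 ± 0.24 in Western diet control and E171 mice (SD, n = 8 each).

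The unfolded protein and integrated stress response list, made of endoplasmic reticulum chaperones and ATF4 targets, had a similar count. All 20 measured members lay below 0 with a median of -0.42, where 50.9% of all genes lay above 0. Yet only Atf5 reached an unadjusted p under 0.05 (background 1.89%), and none was called. That 1 became 2 under normexp or quantile normalization and 4 in the deposited values. Atf5, a stress transcription factor, had medians of 8.31 and 8.38 in control and E171 mice on the normal diet and 8.31 and 8.15 on the Western diet. Those medians differ by less than the range within any group, and its interaction was -0.35 (SE 0.129, adjusted p = 0.89). Creld2 and Hspa5, a secreted and a resident chaperone of the endoplasmic reticulum, had interactions of -0.90 (SE 0.461) and -0.52 (SE 0.303). Ddit3, the pro-apoptotic CHOP factor, was at -0.64 by its brightest probe and 0.06 by its other probe. Xbp1, the factor activated by splicing, was at -0.21. Normal diet controls varied in this list: their mean level ran from 3.31 to 4.55, wider than the 3.73 to 4.11 of normal diet E171 mice.

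**Figure D3:**
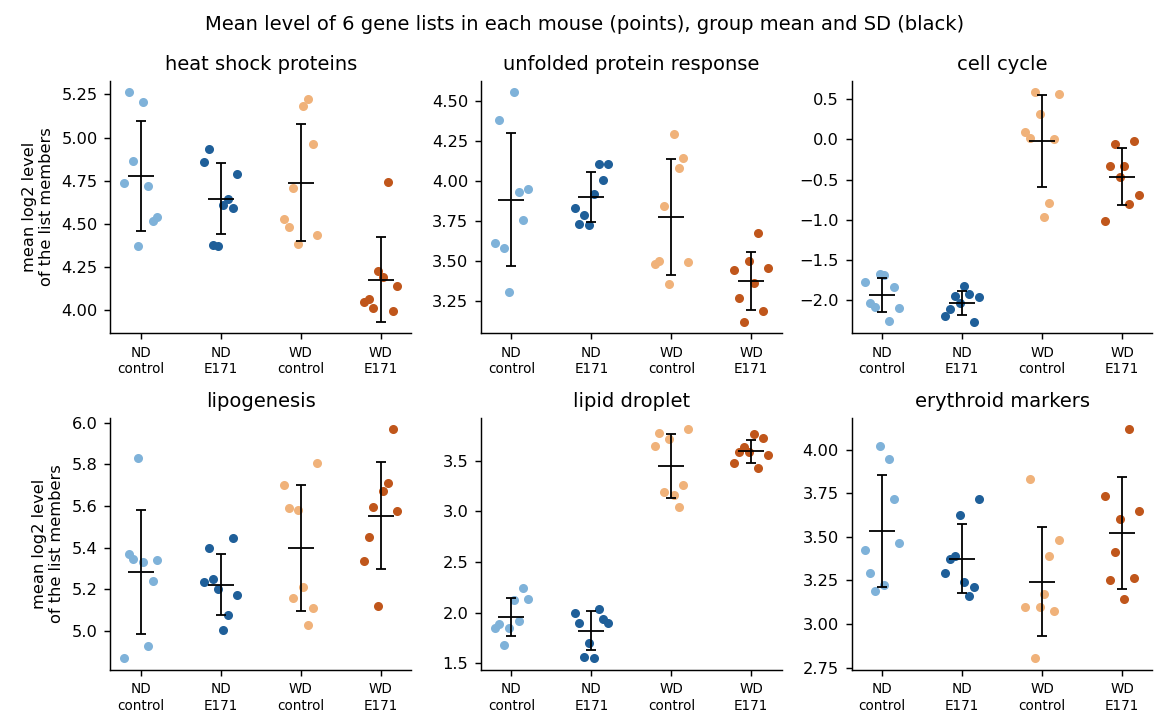
Mean log2 level of the members of 6 gene lists (vertical axis) in each mouse (points) of the 4 groups (horizontal axis), with the group mean and SD in black. Western diet E171 mice are lowest for heat shock proteins (4.18 ± 0.24), and both Western diet groups lie above all normal diet mice for cell cycle and lipid droplet genes.

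Genes of lipid synthesis and storage lay above 0 more often than below, while those of fatty acid oxidation were split. Over all genes 50.9% lay above 0. The fatty acid oxidation and PPARA target list had 14 of 26 members above 0, a median of 0.05, values from -1.08 (Cyp4a14, a fatty acid hydroxylase) to 0.44 (Vnn1, a pantetheinase), and none at an unadjusted p under 0.05. In lipogenesis, the making of fatty acids and triglycerides, 17 of 20 members were above 0 with a median of 0.26, and 3 reached an unadjusted p under 0.05 (background 3.28% for higher values). Agpat2, which makes phosphatidic acid on the way to triglyceride, ran from 7.32 to 7.59 in normal diet controls and from 7.19 to 7.52 in normal diet E171 mice. On the Western diet its controls ran from 6.94 to 7.353 and its E171 mice from 7.354 to 7.66. Those groups all but touched, though they count as without overlap. The same count held 0.186% of all genes on that diet and 0% on the normal diet. The differences were -0.15 and 0.21, and the interaction was 0.36 (95% interval 0.18 to 0.54, unadjusted p = 0.000325, adjusted p = 0.691). Thrsp, the lipogenic Spot 14 protein, had an interaction of 0.87 (SE 0.412) and Tmem97, a sterol-regulated receptor, of 0.33 (SE 0.145). Fasn, fatty acid synthase, stood at 0.37 (SE 0.328) and Scd1, the stearoyl desaturase, at 0.07 (SE 0.143). In Western diet controls the list's mean level ran from 5.03 to 5.81, and in Western diet E171 mice from 5.12 to 5.97. The groups overlapped over most of their range.

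Lipid droplet genes gave 14 of 19 members above 0, against 50.9% of all genes, with a median of 0.20. At an unadjusted p under 0.05 there were 3 members, all higher (background 3.28%), and none was called. Cidec, which fuses droplets, was far above the normal diet level on the Western diet in every mouse: medians were 0.43 and -0.33 in normal diet control and E171 mice and 6.85 and 7.03 in Western diet control and E171 mice. Its E171 difference was -0.70 on the normal diet and 0.17 on the Western diet, an interaction of 0.87 (SE 0.328, adjusted p = 0.918). Cidea, a brown fat member of the same family, ran from -3.22 to 0.97 in normal diet controls and from -3.52 to -0.47 in normal diet E171 mice. It ran from 2.28 to 7.10 in Western diet controls and from 6.29 to 7.46 in Western diet E171 mice. The Western diet controls had the widest range and overlapped the Western diet E171 mice. Controls 3, 5 and 7 lay at 2.76, 2.28 and 2.54, and the other Western diet controls from 5.99 to 7.10. The interaction was 2.15 (SE 0.962, adjusted p = 0.933) and lay between 0.23 and 4.69 on the 4 slides. Fitm1, which helps form droplets, had an interaction of 0.89 (SE 0.335), whereas Plin2, the main droplet coat of hepatocytes, stood at 0.04 (SE 0.224). Clstn3, calsyntenin 3, whose adipocyte form sits at droplets, had medians of 1.99 and 1.20 in normal diet control and E171 mice and 3.88 and 4.42 in Western diet control and E171 mice. E171 differences of -0.73 and 0.53 gave it an interaction of 1.26 (95% interval 0.68 to 1.85, unadjusted p = 0.000116, adjusted p = 0.456), and its other kept probe gave 0.33.

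Markers of fat cells are given beside these genes, and their part in the result was not tested. Of 7 listed adipocyte markers 6 were measured, with Adipoq failing the filter on dim probes. None was called, and 2 reached an unadjusted p under 0.05, both higher (background 3.28%). Above 0 lay 5, against 50.9% of all genes, with a median of 0.45. The log2 of their summed signal ran from 2.36 to 4.06 and from 2.11 to 2.91 in normal diet control and E171 mice. It ran from 3.82 to 6.77 and from 4.87 to 6.33 in Western diet control and E171 mice. Cfd, the complement factor adipsin, ran from -3.32 to 3.54 in normal diet controls (median 0.38) and from -2.44 to 1.78 in normal diet E171 mice (median -1.36). It ran from -0.03 to 6.65 in Western diet controls (median 3.34) and from 2.98 to 6.07 in Western diet E171 mice (median 5.09). Its interaction of 3.12 had a standard error of 1.14 and an adjusted p of 0.89, and groups overlapped on both diets. Adig, adipogenin, had an interaction of 1.06 (SE 0.383), while Lep, leptin, stood at -0.14 and Plin1, the adipocyte perilipin, at 0.11.

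**Figure D4:**
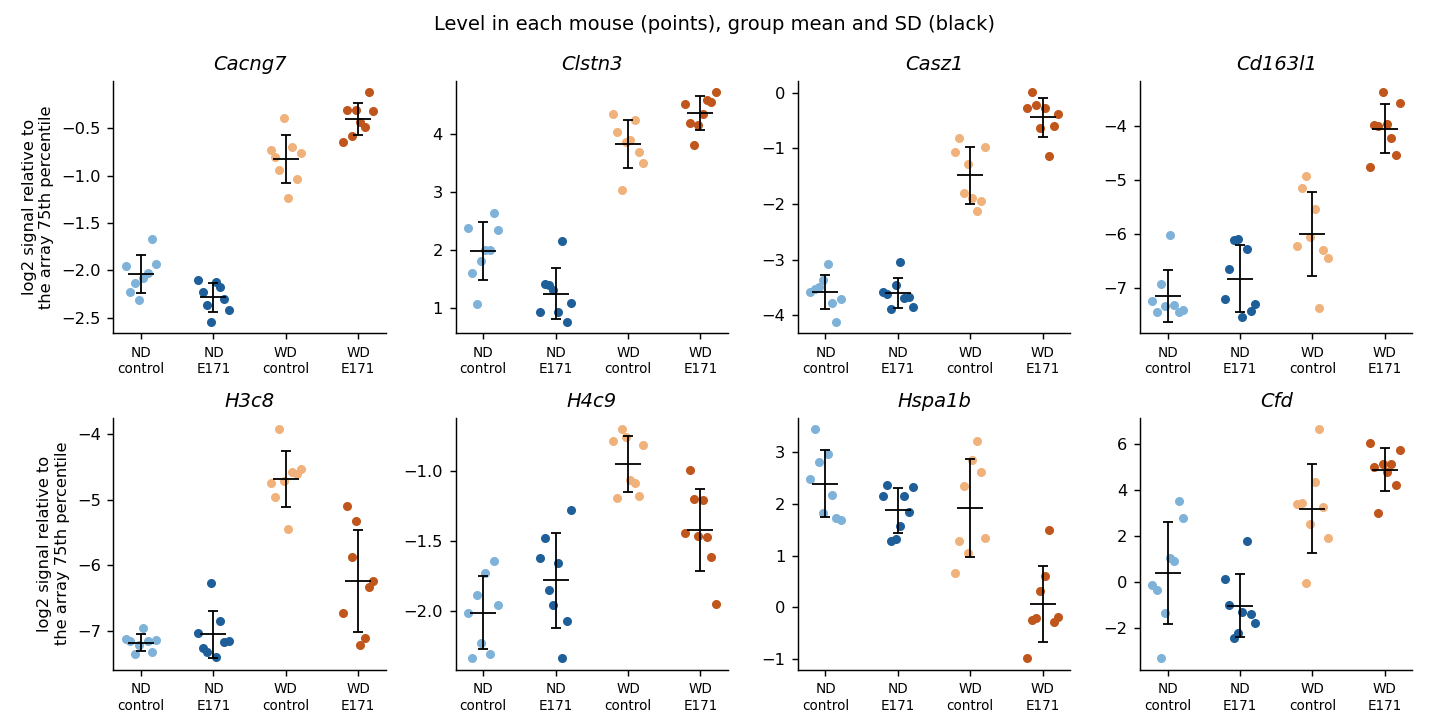
Level of 8 genes (log2 signal relative to the array's 75th percentile, vertical axes) in each mouse (points) of the 4 groups (ND, normal diet; WD, Western diet), with the group mean and SD in black. Cd163l1 separates Western diet E171 mice (-4.76 to -3.38) from Western diet controls (-7.37 to -4.93, with 2 of 8 arrays above background), and Cfd overlaps between control and E171 mice on both diets.

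Among the 12 genes above 0 with the lowest p, none passed, with adjusted p from 0.332 to 0.795. All 24 genes of lowest p, in both directions, had the sign of the interaction on 4 of 4 slides, against 13.2% of all genes; the p-value chose them, so this is a description. Cacng7, an auxiliary subunit of calcium channels and AMPA receptors, had medians of -2.05 and -2.27 in normal diet control and E171 mice and -0.78 and -0.38 in Western diet control and E171 mice. It rose by 0.42 with E171 on the Western diet (adjusted p = 0.045), differed by -0.24 on the normal diet, and had an interaction of 0.67 (95% interval 0.38 to 0.95, unadjusted p = 4.21e-05, adjusted p = 0.332). On slide 3 that value was 0.07, on the others 0.72, 0.72 and 1.15, and its second probe gave 0.20. Casz1, a zinc finger transcription factor, ran from -2.13 to -0.81 in Western diet controls and from -1.14 to 0.00 in Western diet E171 mice, while normal diet medians were -3.55 and -3.64; 7 of 8 Western diet E171 mice lay above every control on that diet. It rose by 1.05 on the Western diet (adjusted p = 0.00513), differed by -0.02 on the normal diet and had an interaction of 1.06 (SE 0.253), with 0.48 at the lowest of its 4 probes. Pced1b, an esterase-like protein, ran from -0.88 to -0.27 in Western diet controls and from -0.15 to 0.21 in Western diet E171 mice without overlap. It rose by 0.60 (adjusted p = 0.00261) beside -0.01 on the normal diet, an interaction of 0.61 (SE 0.135).

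Cd163l1, a scavenger receptor of the CD163 family, was detected on 0 of 16 normal diet arrays, 2 of 8 Western diet control arrays and 8 of 8 Western diet E171 arrays. Medians were -6.13 in Western diet controls and -3.99 in Western diet E171 mice, and the groups did not overlap. The fitted Western diet difference was 1.95 (adjusted p = 0.0013), but the probe passed the filter through Western diet E171 mice alone and most of the controls were below background, so its size is not measured. In E171 mice the Western diet level was at least 1.09 above that on the normal diet on the log2 scale, a bound set by the background limit. The fitted interaction of 1.63 (SE 0.406, adjusted p = 0.691) has the same limit. Cd163 itself, a Kupffer cell marker, stood at 0.62 (SE 0.606). Of the 14 macrophage markers 12 lay above 0, against 50.9% of all genes. Their median was 0.06, with none at an unadjusted p under 0.05. Of 12 measured T and NK cell markers 9 lay above 0, against 50.9% of all genes. Their median was 0.24, with none at an unadjusted p under 0.05. Klre1, an NK cell receptor, was in the opposite direction at -1.18 (SE 0.354, adjusted p = 0.808). Above background were 7 of 8 normal diet E171 arrays, 5 of 8 Western diet control arrays and 0 of 8 Western diet E171 arrays. Taken against the background limit, Western diet controls averaged 0.17 above Western diet E171 mice on the log2 scale. That average includes control arrays below background, so the size is not measured.

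Other genes above 0 in that set included Meig1, a spermatogenesis gene, at 1.83 (SE 0.438) and Pomc, the precursor of ACTH and melanocortins, at 0.82 (SE 0.207). Pomc rose by 0.72 with E171 on the Western diet (adjusted p = 0.024). Itga7, a laminin-binding integrin, was at 0.41, Ercc3, a helicase of transcription and DNA repair, at 0.30, and the predicted gene Gm17066 at 0.39. Zfp979, a zinc finger gene of a cluster on chromosome 4, had medians of -1.50 and -1.95 in normal diet control and E171 mice and -0.84 and 0.06 in Western diet control and E171 mice, with overlap on both diets. Its interaction was 1.62 (SE 0.418, adjusted p = 0.779). Its neighbours Zfp982 and Zfp985, named after their values were seen, were at 0.94 (SE 0.251) and 0.63 (SE 0.181), and no pair of these 3 probes shares a run longer than 12 bases. Below 0, AI197445 was at -1.06 (SE 0.223, adjusted p = 0.332). It ran from -5.25 to -4.34 and from -5.03 to -3.92 in normal diet control and E171 mice. On the Western diet it ran from -5.125 to -4.00 in controls and from -5.87 to -4.80 in E171 mice. These levels are dim, so the background may limit the size. Exph5, a vesicle transport protein that binds Rab27, was at -0.77 and Adam32, a testis ADAM protein, at -1.14. Ugcg, which makes glucosylceramide, was at -0.45, Med21, a Mediator subunit, at -0.44, and Rdm1, a DNA repair protein, at -0.40. Uhrf2, a ubiquitin ligase that reads modified DNA, was at -0.35 by its brightest probe and up to 0.18 by others, and it fell by 0.34 with E171 on the Western diet (adjusted p = 0.024).

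Iron handling held a matched pair of low values. Hepcidin, made from Hamp, blocks iron export from cells, and Hamp2 is its mouse duplicate. The coding parts of both probes are shown because the genes are close relatives, with the longest shared run, 14 bases, in capitals and the stop codon at the end (mm9, minus strand, probes at chr7:31727490-31727549 and chr7:31707520-31707579).
Hamp: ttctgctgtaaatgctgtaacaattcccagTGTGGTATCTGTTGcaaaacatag
Hamp2: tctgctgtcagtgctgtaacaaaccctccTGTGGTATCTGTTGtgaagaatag
At the best ungapped alignment 42 of 60 probe bases are identical, so the readings may not be fully separate. Hamp ran from 7.41 to 8.62 in normal diet controls and from 7.83 to 8.79 in normal diet E171 mice, and from 3.73 to 7.38 in Western diet controls and 2.12 to 5.51 in Western diet E171 mice. Every Western diet mouse was below every normal diet mouse, and control and E171 mice overlapped on both diets. The interaction was -1.47 (SE 0.649, adjusted p = 0.931) for Hamp, which had the opposite sign on slide 2 (0.77), and -1.48 (SE 0.622, adjusted p = 0.919) for Hamp2. Of the 20 iron and metal genes no other reached an unadjusted p under 0.05, and the median was -0.02. The erythroid markers lay above 0 in 5 of 6, against 50.9% of all genes. Their median was 0.48 (highest Slc4a1, the red cell anion exchanger, at 0.66). The log2 of their summed signal ran from 8.94 to 10.07 and from 8.90 to 9.81 in normal diet control and E171 mice, and from 8.78 to 10.28 and from 9.24 to 10.44 in Western diet control and E171 mice, and their part in the result was not tested.

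Genes read by hormones and the clock were split. Zbtb16, a strongly glucocorticoid-induced factor, had medians of 2.85 and 2.04 in normal diet control and E171 mice and 2.76 and 0.57 in Western diet control and E171 mice. It fell by 2.16 with E171 on the Western diet (adjusted p = 0.0013), differed by -0.95 on the normal diet and had an interaction of -1.22 (SE 0.461, adjusted p = 0.918). Of 12 glucocorticoid targets 8 lay below 0 and 4 above, where 50.9% of all genes lay above 0. They ran from -1.22 to 0.86 with a median of -0.15. At an unadjusted p under 0.05 lay 1, which was lower (background 1.89%). Tsc22d3 and Tat stood at -0.60 each. Nfil3, a repressor of the clock output, ran from 2.34 to 3.59 in Western diet controls and from 1.52 to 2.08 in Western diet E171 mice without overlap. It fell by 1.1 (adjusted p = 0.00528) beside -0.55 on the normal diet, an interaction of -0.55 (SE 0.269). The 18 clock genes had a median of 0.04 and ran from -0.60 to 0.40. At an unadjusted p under 0.05 lay 1 higher (background 3.28%) and 1 lower (background 1.89%). Per1 and Per2, core clock repressors, stood at 0.02 and 0.18. Arntl, another core clock gene, ran from 0.71 to 1.58 in normal diet controls and from -0.63 to 1.88 in normal diet E171 mice. On the Western diet it ran from -1.225 to 0.69 in controls and from -1.65 to -0.85 in E171 mice. Susd4, a complement regulator of the male-biased list, had medians of 3.77 and 3.25 in control and E171 mice on the normal diet, 0.62 and 1.55 on the Western diet, and an interaction of 1.39 (SE 0.404, adjusted p = 0.808). The 19 measured male-biased genes had a median of 0.13.

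**Figure D5:**
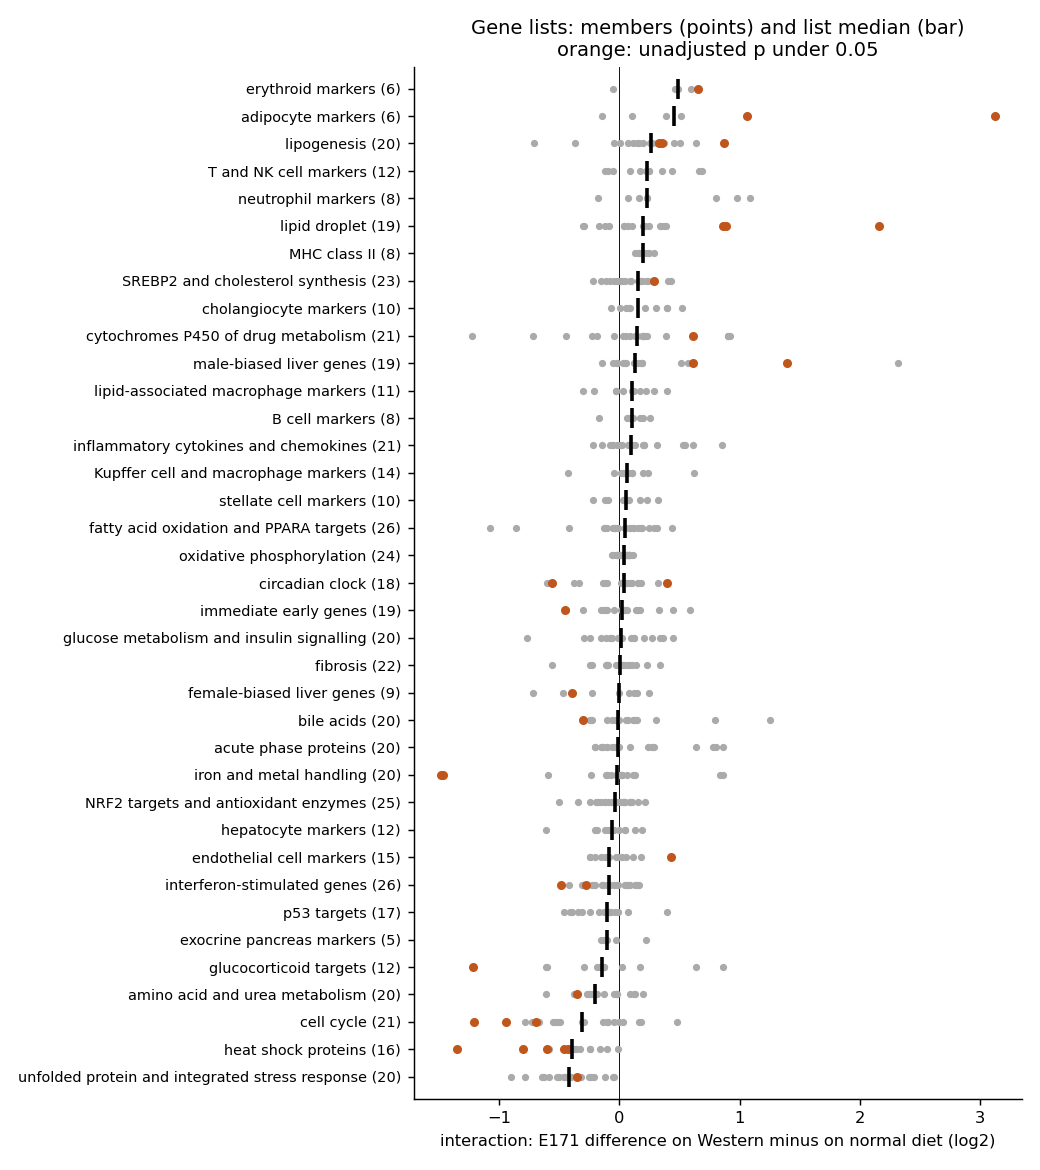
Interaction of each measured member (points; horizontal axis, log2) of 37 gene lists, sorted by list median (black bar), with the number of measured members in brackets; orange points have an unadjusted p under 0.05. The unfolded protein response and heat shock lists lie wholly below 0, at medians of -0.42 and -0.39, and no member of any list passed the adjusted threshold.

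Scar and antioxidant lists lay close to the median of all genes. Fibrosis had a median of 0.01 over 22 genes and NRF2 targets with antioxidant enzymes of -0.03 over 25, and neither had a member at an unadjusted p under 0.05. Inflammatory cytokines and chemokines had a median of 0.10 over 21 genes with none at that level, and Cxcl1, a neutrophil attractant, stood at 0.86 with a 95% interval from -0.94 to 2.65. Of all genes 50.9% lay above 0. Of 8 neutrophil markers 7 did, with a median of 0.23. S100a8 and S100a9, the calprotectin subunits, stood at 0.80 (SE 0.488) and 0.98 (SE 0.516). MHC class II genes lay above 0 in 8 of 8 with a median of 0.20, although the most different, H2-Ab1, had an interval from -0.42 to 1.0. Of 26 interferon-stimulated genes 2 had lower values at an unadjusted p under 0.05 (background 1.89%), Cmpk2 at -0.48 and Bst2 at -0.28. SREBP2 targets, which make and take up cholesterol, lay above 0 in 17 of 23 with a median of 0.16. Amino acid and urea genes lay below 0 in 16 of 20 with a median of -0.20. Oxidative phosphorylation genes, 24 in all, had a median of 0.04 and a lowest value of -0.06.

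Genes the Western diet itself raised or lowered most were set apart by the diet difference averaged over control and E171 mice. Of 1399 genes at least 1 higher on the Western diet on the log2 scale, 64.8% had an interaction above 0 with a median of 0.09, against 50.9% of all genes. Of 412 genes at least 1 lower, 47.8% lay above 0 with a median of -0.03. In the first set, the mean level was -1.01 ± 0.393 (SD, n = 8) in Western diet controls and -0.999 ± 0.309 (SD, n = 8) in Western diet E171 mice, and -2.65 ± 0.08 (SD, n = 8) and -2.76 ± 0.10 (SD, n = 8) in normal diet control and E171 mice. The Western diet means differed by less than the SD between mice and the normal diet means by slightly more, and neither difference of the set was tested.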

How the data were processed

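Liver RNA of 32 mice was hybridised to 1-colour Agilent arrays. Per the file headers, the deposited files hold background-corrected Cy3 intensity per spot from Agilent Feature Extraction (version 10.10.1.1, per the submitters' processing notes). The authors' deposited table of log2 values, made by steps not stated in these sources, served as an alternative. Log2 processed signal was averaged over replicate spots, without control and outlier spots (27 gene values were left out), and the array's 75th percentile was subtracted. Of 56605 probes, 35777 were kept, being well above background on at least 6 of 8 arrays of a group. The brightest probe stood for each of 23647 genes (17995 named through RefSeq, GRCm38.p6, or the files). The 4 group means were estimated in limma 3.58.1 (R 4.3.3) with no block. Two-sided moderated tests were adjusted by Benjamini-Hochberg (threshold 0.05), and the code was tested on simulated data. A gene not above background in a whole group has a bound against the dimmest probe above background there. Named genes are the 12 of lowest p per direction, and members or the 3 lowest p of each of 37 lists; genes called on the Western diet and genes said to be picked later were added. Members and lists were chosen with earlier results of these data known. Alternatives were background correction, scaling, filters, blocks, weights, and leaving out mice or slides.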

Additional observations from a re-analysis of the deposited data

Results flagged for a closer look

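Of 96 groups checked, 4 for each of the 24 genes of lowest interaction p, 10 held a mouse far from the other 7, and chance alone marks about 1 group in 20. Values are log2 levels relative to the array's 75th percentile. Normal diet E171 mouse 6 stood apart for 3 genes: at 2.15 for Clstn3 (others 0.76 to 1.40), at 1.32 for Med21 (others 1.68 to 1.84) and at -4.03 for Klre1 (others -4.92 to -4.62). Normal diet E171 mouse 2 was at -2.22 for Pomc, where the others lay from -3.45 to -3.05. Normal diet E171 mouse 1 was at -5.03 for AI197445, where the others lay from -4.45 to -3.92. Normal diet control 5 was at -6.02 for Cd163l1 (others -7.45 to -6.92), where no normal diet array was above background. Western diet control 3 was at 6.94 for Agpat2 (others 7.21 to 7.35), and Western diet control 5 was at -3.89 for Exph5 (others -4.92 to -4.53). Western diet E171 mouse 7 was at 2.76 for Ercc3 (others 2.48 to 2.57), and Western diet E171 mouse 6 was at 2.40 for Uhrf2 (others 1.97 to 2.16). Leaving out any single mouse kept the sign of the interaction of these genes, from 0.31 to 0.39 for Agpat2 and from -0.98 to -1.34 for Klre1.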

How the results depend on the processing

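No gene was called for the interaction under normexp, quantile normalization, another percentile, the deposited values, a slide block, probes detected on all arrays, probe means, group weights, trend and robust fits, linear signal, or without any slide. Without a filter on dim probes 1 was called (37501 genes tested), and leaving out single mice gave 0 to 1. Whether replicate numbers pair the mice is not stated, and the main fit used no pairing. Deviations of same-numbered mice correlated at -0.298 to 0.571 (mean 0.0697, against -0.00877 for other numbers). Of 32 arrays, 8 correlated best with an array of their own number. These values do not settle whether mice were paired. With the number as a block, the interaction had 1 call, the normal diet 0 and the Western diet 173. For E171 on the Western diet, linear signal gave 146 calls and leaving out single mice 29 to 169. Leaving out slide 1, 2, 3 or 4 gave 78, 1, 5 and 5. Each of these fits had fewer mice, and the cause of the unequal counts was not tested. On the normal diet, leaving out single mice gave 0 calls throughout. Genes at an unadjusted interaction p under 0.05 numbered 710 without slide 4 and 931 to 1538 without single mice. The 24 genes of lowest p kept their sign in all 1145 refits, and H3c8 alone crossed the threshold, once, at -1.84 (adjusted p = 0.025). Scaling moved the median interaction by 0.013 at most. Signal over background limits the dim genes: Cd163l1, H3c8 and H2bc23 were well above background on no normal diet array.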
